A study of Mus musculus with 6 samples.

Results

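The S100 genes described here were the 10 listed by symbol in the count table, S100a1, S100a3, S100a4, S100a6, S100a7a, S100a10, S100a11, S100a13, S100a14 and S100a16, out of 18180 genes in all. RNA came from mouse tail skin. The 3 libraries labelled cKO carried the genotype Mettl3fl/fl;K14creERT2+/-, with both alleles of the m6A methyltransferase gene Mettl3 floxed and a tamoxifen-inducible Cre driven by the keratin 14 promoter, which is active in basal keratinocytes. Their tissue was cut from spontaneously inflamed tail areas. The 3 control libraries carried Mettl3fl/fl;K14creERT2-/-, that is the same floxed alleles without Cre, and came from normal tails. The series' design text describes tamoxifen on 5 consecutive days and collection 4 weeks later. Genotype and inflamed tissue went together and cannot be told apart.

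S100 proteins are small calcium-binding proteins with a pair of EF-hand motifs, most of which act as dimers. On binding calcium most of them expose a surface that grips partner proteins such as annexins, myosin or cytoskeletal proteins, and several can also leave the cell and act on receptors. Most S100 genes lie together with the genes of the cornified envelope in the epidermal differentiation complex, and several are abundant in keratinocytes and hair.

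Totals ran from 35855880 to 36113956 counts in the libraries labelled cKO and from 36115822 to 37043849 in the control libraries. The targeted gene, Mettl3, had 569, 512 and 540 counts in the libraries labelled cKO, against 440, 389 and 337 counts in control libraries. It was 1.40-fold higher (edgeR quasi-likelihood, adjusted p = 0.000102), which goes against the label. These are counts over the whole gene, and the floxed exons on their own were not analysed here. Keratinocyte markers were abundant in all libraries: summed basal markers (Krt5, Krt14, Itga6, Itgb4, Col17a1) ran from 12358 to 12647 CPM in the libraries labelled cKO and from 8547 to 8759 CPM in control libraries, with Krt5, Krt14 and Itga6 higher and Itgb4 and Col17a1 lower in the libraries labelled cKO. CPM are counts relative to the TMM-scaled library total, and values below are mean ± SD over 3 libraries a group.

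All 10 S100 genes passed the low-count filter. With edgeR's quasi-likelihood test and an adjusted p under 0.05, S100a11, S100a7a, S100a16 and S100a14 rose in the libraries labelled cKO, and S100a3, S100a1, S100a4, S100a10 and S100a6 fell. S100a13 did not pass. These 9 calls in 10 genes stand against 61.4% of all 15061 genes tested, with 30.8% called higher and 30.6% called lower. The counts of called cell type markers given below stand against the same shares. No member changed 2-fold. The median log2 fold change of the 10 genes was -0.11 (0.0021 over all genes tested), and the median size of change without its sign was 0.35 (0.32 over all genes tested). The groups did not overlap in 9 of the 10 genes, all but S100a6, against 64.9% of all genes tested. In tissue RNA of this kind, fewer cells of a type and less RNA per cell cannot be told apart. Whether each library stands for its own animal is not said in the labels, so the p-values reflect nothing beyond library-to-library spread, which may be technical. The common biological coefficient of variation (BCV) of the fit was 5.34%, far tighter than the 20% and 40% tried as assumed values.

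Rules that ask for a larger change or assume a wider spread kept fewer of the 10 genes. At an adjusted p under 0.01 the same 4 were higher and the same 5 lower, where 52.5% of all genes passed, 26.5% higher and 26.1% lower. Tested against a change of 1.2-fold, S100a7a and S100a11 were higher and S100a1, S100a3 and S100a4 lower, where 34.4% of all genes passed, 18% higher and 16.4% lower. Tested against 1.5-fold, S100a3 alone passed, where 13.6% of all genes did, 7.52% higher and 6.05% lower. With an assumed BCV of 20%, S100a3 (adjusted p = 0.00601) and S100a1 (adjusted p = 0.0189) were lower and none was higher, where 22.3% of all genes passed, 12.2% higher and 10.2% lower. With an assumed BCV of 40% none passed, where 5.14% of all genes did, 3.04% higher and 2.1% lower.

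**Figure D1:**
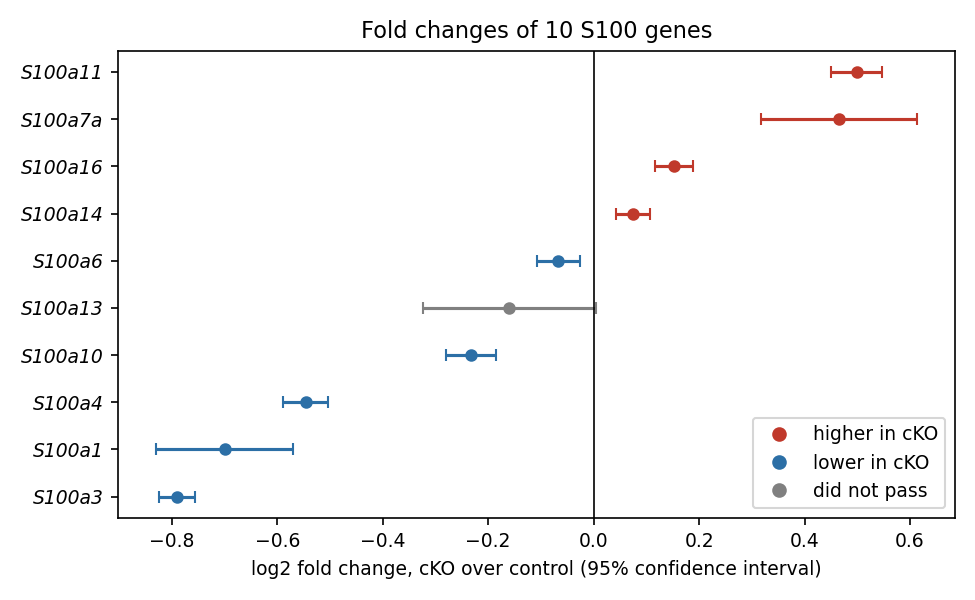
Log2 fold change of each S100 gene, libraries labelled cKO over control libraries, with 95% confidence intervals from edgeR's quasi-likelihood fit (n = 3 a group); positive means higher in the libraries labelled cKO. The estimates run from -0.79 for S100a3 to 0.50 for S100a11, and the interval of S100a13 alone spans 0.

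RefSeq promoter windows (build GRCm38.p6) were at hand for 8 of the 10 genes, 12 windows in all, S100a10 and S100a14 being without one. The 250 bases before each start were searched on both strands for TGANTCA and for TATAAA, the core of the TATA box. TGANTCA is a loose form of the site of AP-1 factors, with any base allowed in the middle. No window of the 10 genes held both motifs, so their matches did not overlap. TGANTCA stood in 6.75% of all 32851 windows and TATAAA in 12.4%. The S100a11 window held 2 copies of TGANTCA, which 0.338% of all windows did, at 136 and 38 bases before the start, and 1 of the 2 S100a16 windows held 1 copy. TATAAA stood 31 bases before the start of S100a4. It also stood in 1 of the 4 windows of S100a3, at 52 bases before the start. The other member windows held neither, among them those of S100a7a, which rose, and S100a1, which fell. Whether the motifs bear on direction was not tested. A match is a description of letters and not a site of binding. The 4 windows with a match are shown in lower case with the matches in capitals. Each runs up to the start or, for S100a11, to the first annotated exon. They are S100a11 at chr3:93520246-93520487, S100a16 at chr3:90540896-90541145, S100a3 at chr3:90588313-90588562 and S100a4 at chr3:90603520-90603769, each on the plus strand.
S100a11: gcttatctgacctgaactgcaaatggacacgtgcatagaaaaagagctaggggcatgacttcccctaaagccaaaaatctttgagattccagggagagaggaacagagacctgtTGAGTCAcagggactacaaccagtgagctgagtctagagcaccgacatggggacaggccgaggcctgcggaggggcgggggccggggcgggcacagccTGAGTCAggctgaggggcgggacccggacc
S100a16: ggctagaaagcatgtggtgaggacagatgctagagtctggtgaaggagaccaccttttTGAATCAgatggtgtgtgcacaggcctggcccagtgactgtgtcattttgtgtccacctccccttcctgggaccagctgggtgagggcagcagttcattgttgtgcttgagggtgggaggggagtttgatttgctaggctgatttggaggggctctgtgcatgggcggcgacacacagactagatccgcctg
S100a3: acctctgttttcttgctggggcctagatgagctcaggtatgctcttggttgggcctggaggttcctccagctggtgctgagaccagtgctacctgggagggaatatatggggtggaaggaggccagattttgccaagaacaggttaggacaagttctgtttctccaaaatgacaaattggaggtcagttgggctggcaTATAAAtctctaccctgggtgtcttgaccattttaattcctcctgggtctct
S100a4: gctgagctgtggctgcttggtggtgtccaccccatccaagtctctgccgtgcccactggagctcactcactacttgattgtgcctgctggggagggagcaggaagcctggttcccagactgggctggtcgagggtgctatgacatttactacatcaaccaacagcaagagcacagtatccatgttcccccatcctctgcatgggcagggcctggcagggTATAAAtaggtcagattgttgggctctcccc

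S100a3, a protein rich in cysteines that is known from the hair cuticle, where the arginine deiminase PADI3 modifies it, had the largest fall of the 10. It had 17165, 17352 and 17110 counts in the libraries labelled cKO, against 30643, 29003 and 29972 counts in control libraries. Every library labelled cKO lay far below every control library. The level was 474 ± 3.97 CPM in the libraries labelled cKO and 820.2 ± 13.1 CPM in control libraries, a 1.73-fold fall (95% confidence interval 1.69 to 1.77, log2 fold change -0.79, SE 0.017, adjusted p = 2.11e-52). Padi3 fell too, to 58.2 ± 4.10 CPM in the libraries labelled cKO, against 92.8 ± 2.58 CPM in control libraries (log2 fold change -0.67, SE 0.045, adjusted p = 2.94e-22). Of 11 hair shaft and hard keratin markers, 10 fell and none rose, with Krt35 not passing, and their sum ran from 3087 to 3118 CPM in the libraries labelled cKO and from 6088 to 6205 CPM in control libraries. None of these markers was at 0. Their part in the fall of S100a3 was not tested.

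S100a1 is known best from heart and skeletal muscle, where it binds ryanodine receptors and the calcium pump SERCA. It had 1004, 933 and 945 counts in the libraries labelled cKO, against 1670, 1582 and 1448 counts in control libraries, with no overlap. It fell 1.62-fold (95% confidence interval 1.48 to 1.78), to 26.5 ± 1.151 CPM in the libraries labelled cKO, against 43.0 ± 3.19 CPM in control libraries (log2 fold change -0.70, SE 0.065, adjusted p = 1.48e-15). Of 8 skeletal muscle markers 1, Ckm, was higher and none lower, with a sum of 14.8 to 31.6 CPM in the libraries labelled cKO and 12.3 to 16.05 CPM in control libraries, none at 0. Their part in the fall of S100a1 was not tested. Ryr1 and Ryr2 fell, as given below. The SERCA gene Atp2a2 rose to 362 ± 6.88 CPM in the libraries labelled cKO, against 311 ± 2.15 CPM in control libraries (edgeR, adjusted p = 8.80e-15). Atp2a2 was named after its value was seen.

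S100a13, which takes part in the release of FGF1 and IL-1 alpha from cells without a signal peptide, overlaps the reference span of S100a1 on the opposite strand. It had 701, 746 and 703 counts in the libraries labelled cKO, against 814, 816 and 781 counts in control libraries. The groups did not overlap, but the difference did not pass (19.8 ± 0.682 CPM in the libraries labelled cKO, 22.1 ± 0.762 CPM in control libraries, log2 fold change -0.16, SE 0.082, adjusted p = 0.0859). The 95% confidence interval of its fold, cKO over control, ran from 0.799 to 1.003. With limma on log2(FPKM + 1) of all genes it was called lower (adjusted p = 0.0267). The strand setting of the counting is not given in the sources used here, so reads from the shared stretch of S100a1 and S100a13 cannot be assigned to one of them. Of the secreted clients, Il1a rose to 39.9 ± 0.558 CPM in the libraries labelled cKO, against 28.4 ± 2.55 CPM in control libraries (log2 fold change 0.49, adjusted p = 6.85e-10), and Fgf1 did not pass (13.8 ± 1.04 CPM in the libraries labelled cKO, 14.3 ± 1.003 CPM in control libraries, adjusted p = 0.667).

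**Figure D2:**
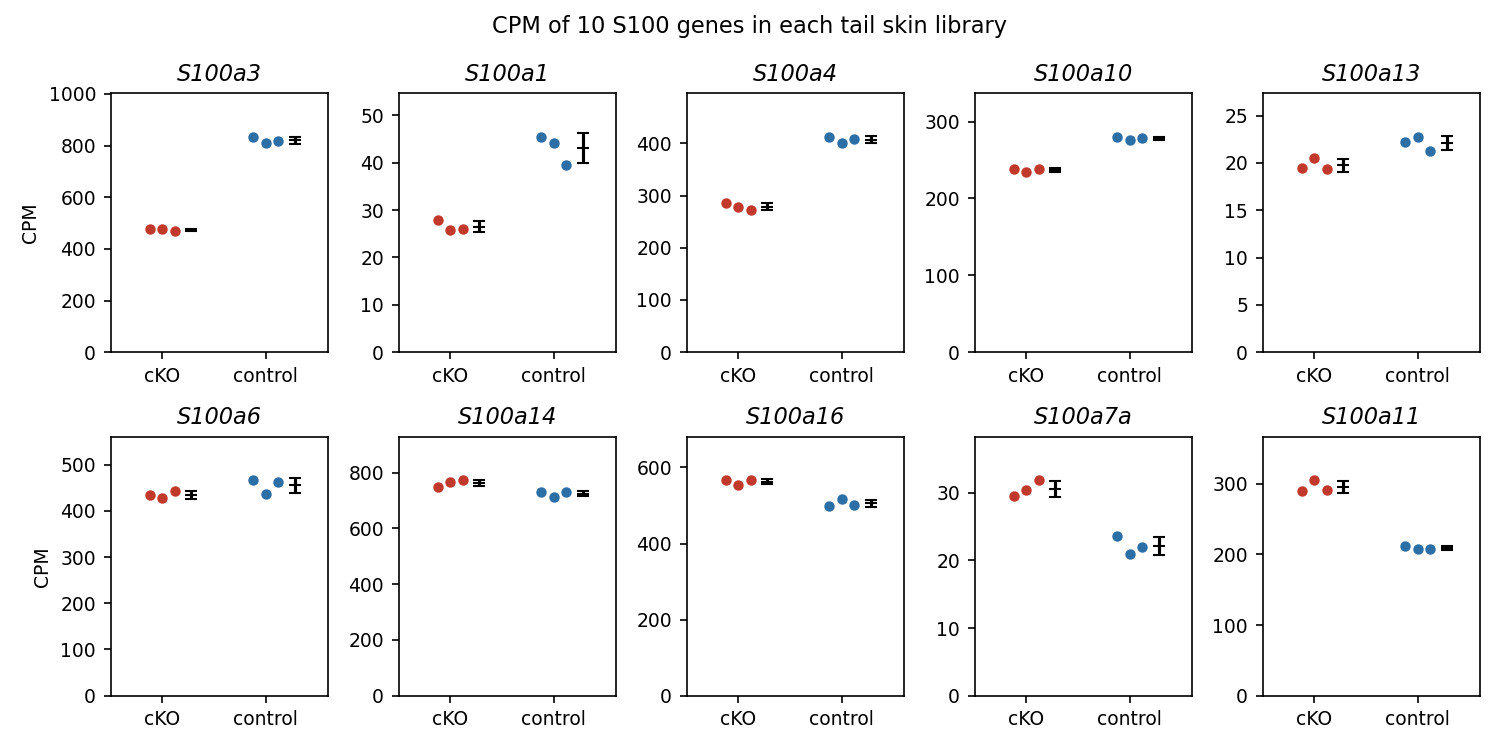
CPM of each S100 gene in each of the 3 libraries labelled cKO (red) and the 3 control libraries (blue), with the group mean and SD in black; each panel has its own linear axis from 0, and panels run from the lowest to the highest fold change. Only in S100a6 do points of the groups overlap.

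S100a4, also called fibroblast-specific protein, binds non-muscle myosin IIA and is made by fibroblasts and leukocytes. It had 10289, 10117 and 9940 counts in the libraries labelled cKO, against 15150, 14354 and 14992 counts in control libraries. All libraries labelled cKO were lower than all control libraries. The fall was 1.46-fold (95% confidence interval 1.42 to 1.504), to 279 ± 5.94 CPM in the libraries labelled cKO, against 407 ± 6.11 CPM in control libraries (log2 fold change -0.55, SE 0.021, adjusted p = 1.52e-35). Of 7 fibroblast markers 6 rose and 1, Dcn, fell, with a sum of 16327 to 16374 CPM in the libraries labelled cKO and 11265 to 11371 CPM in control libraries. All 5 leukocyte markers rose, with a sum of 206 to 208 CPM in the libraries labelled cKO and 93.6 to 99.98 CPM in control libraries, and no marker of either list was at 0. The part of these cell types in the fall of S100a4 was not tested. The myosin gene Myh9 rose 1.36-fold, to 354 ± 7.94 CPM in the libraries labelled cKO, against 261 ± 2.41 CPM in control libraries (adjusted p = 4.40e-29); it was named after its value was seen.

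S100a6, or calcyclin, a protein of proliferating and stromal cells, gave the smallest change. It had 15661, 15537 and 16153 counts in the libraries labelled cKO, against 17136, 15679 and 17007 counts in control libraries, and in CPM control replicate 2 lay within the range of the libraries labelled cKO. The fall was 1.05-fold (95% confidence interval 1.02 to 1.08; 435 ± 8.06 CPM in the libraries labelled cKO, 456 ± 15.9 CPM in control libraries, log2 fold change -0.07, SE 0.020, adjusted p = 0.00329). The call was lost without control replicate 1 (adjusted p = 0.0503) and with library totals as the only scaling (adjusted p = 0.0548). Cacybp, which encodes the calcyclin-binding protein, rose 1.33-fold, to 114 ± 2.41 CPM in the libraries labelled cKO, against 85.7 ± 5.90 CPM in control libraries (adjusted p = 6.72e-15).

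S100a10 and S100a11 both work as annexin partners, S100a10 with annexin A2 and S100a11 with annexin A1, and in these libraries they went in opposite directions. S100a10 differs from its relatives in that its EF hands no longer bind calcium. It had 8605, 8514 and 8663 counts in the libraries labelled cKO, against 10290, 9905 and 10214 counts in control libraries, and every library labelled cKO was lower. The fall was 1.17-fold (95% confidence interval 1.14 to 1.21), to 237 ± 2.15 CPM in the libraries labelled cKO, against 278 ± 1.95 CPM in control libraries (log2 fold change -0.23, SE 0.023, adjusted p = 4.13e-14).

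S100a11, the calgizzarin gene, had 10494, 11090 and 10583 counts in the libraries labelled cKO, against 7778, 7447 and 7624 counts in control libraries. Every library labelled cKO was higher, and the groups were far apart. It had the largest rise of the 10, 1.41-fold (95% confidence interval 1.37 to 1.46), at 296 ± 8.48 CPM in the libraries labelled cKO and 209 ± 2.42 CPM in control libraries (log2 fold change 0.50, SE 0.024, adjusted p = 7.69e-30). All 4 wound keratinocyte markers rose, with a sum of 26782 to 27844 CPM in the libraries labelled cKO and 3274 to 3299.6 CPM in control libraries, none at 0, and their part in the rise of S100a11 was not tested. The reference lists a pseudogene of S100a11, and how the counting treated reads that fit both is not given in the sources used here. The ratio of S100a11 to S100a10 in FPKM was 1.61 ± 0.0611 in the libraries labelled cKO and 0.969 ± 0.00612 in control libraries. An exact two-sided permutation test gave p = 0.1, the smallest that 3 against 3 libraries allow, and 0.133 after adjustment over the 4 ratios tested. The FPKM ratios of S100a3 to S100a14 and of S100a4 to S100a6 gave the same p. The first was 0.213 in the libraries labelled cKO and 0.387 in control libraries, the second 0.813 and 1.133.

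Of the annexin partners, Anxa1 rose 1.22-fold, to 1255 ± 10.3 CPM in the libraries labelled cKO, against 1027 ± 7.14 CPM in control libraries (adjusted p = 9.61e-31). Anxa2 fell 1.04-fold, to 863 ± 3.98 CPM in the libraries labelled cKO, against 898 ± 6.43 CPM in control libraries (adjusted p = 0.000531). Ahnak, a giant scaffold protein that binds the complex of S100A10 and annexin A2, fell 1.34-fold, to 1328 ± 4.36 CPM in the libraries labelled cKO, against 1784 ± 22.4 CPM in control libraries (adjusted p = 2.65e-43).

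S100a7a is the mouse counterpart of the human psoriasin genes, whose products are antimicrobial and attract leukocytes. It had 1068, 1102 and 1160 counts in the libraries labelled cKO, against 866, 748 and 808 counts in control libraries, with no overlap. It rose 1.38-fold (95% confidence interval 1.25 to 1.53), to 30.6 ± 1.17 CPM in the libraries labelled cKO, against 22.2 ± 1.36 CPM in control libraries (log2 fold change 0.47, SE 0.074, adjusted p = 9.24e-08). Its neighbours in reference order, S100a8 and S100a9, which encode calprotectin, rose 33.3-fold and 38.2-fold. All 5 tested neutrophil markers rose too, while Ly6g, Camp and Ngp of that list had too few counts to test in either group. The sum over the 8 listed was 45.7 to 46.8 CPM in the libraries labelled cKO and 9.26 to 12.3 CPM in control libraries. The part of neutrophils in the rise of S100a7a was not tested. The related gene S100a7l2 had 0, 1 and 4 counts in the libraries labelled cKO and 5, 3 and 4 counts in control libraries, too few to test. For the receptors of extracellular S100 proteins, Tlr4 rose 1.71-fold, to 24.2 ± 0.978 CPM in the libraries labelled cKO, against 14.1 ± 1.56 CPM in control libraries (adjusted p = 6.41e-12). Ager, which encodes the receptor RAGE, fell 1.67-fold with overlapping groups, to 1.87 ± 0.717 CPM in the libraries labelled cKO, against 3.12 ± 0.513 CPM in control libraries (adjusted p = 0.0114).

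S100a14 and S100a16 neighbour each other in the reference, and both were abundant and rose slightly. S100a16 had 20440, 20155 and 20633 counts in the libraries labelled cKO, against 18343, 18527 and 18448 counts in control libraries. It rose 1.11-fold (95% confidence interval 1.08 to 1.14), to 563 ± 6.63 CPM in the libraries labelled cKO, against 506 ± 9.40 CPM in control libraries (log2 fold change 0.15, SE 0.018, adjusted p = 2.25e-11). S100a14 had 27073, 27837 and 28139 counts in the libraries labelled cKO, against 26847, 25553 and 26800 counts in control libraries. Its rise was 1.05-fold (95% confidence interval 1.03 to 1.08; 763 ± 12.001 CPM in the libraries labelled cKO, 725 ± 10.03 CPM in control libraries, log2 fold change 0.07, SE 0.016, adjusted p = 5.36e-05). The groups did not overlap in either gene after scaling. Their ratio in FPKM, S100a16 to S100a14, was 0.406 ± 0.00876 in the libraries labelled cKO and 0.385 ± 0.0126 in control libraries (exact permutation p = 0.2).

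Levels between genes were compared in the authors' FPKM, counts relative to gene length and library total. In the libraries labelled cKO the order was S100a14 at 701 ± 11.4, S100a6 at 609.9 ± 11.2, S100a11 at 591 ± 17.4 and S100a4 at 496 ± 10.3 FPKM, where S100a6 and S100a11 overlapped. S100a4, S100a14 and S100a6 led in control libraries, at 712 ± 10.4, 655 ± 8.92 and 629 ± 21.7 FPKM, and none of these neighbours overlapped. S100a4 thus ranked 4 of 10 in the libraries labelled cKO and 1 of 10 in control libraries, and S100a11 ranked 3 in the libraries labelled cKO and 5 in control libraries. S100a3 stood at 149 ± 1.28 FPKM in the libraries labelled cKO, below S100a16 at 285 ± 3.18 FPKM. In control libraries it stood level with S100a16, at 254 ± 3.88 against 252 ± 4.76 FPKM, with overlapping libraries. S100a10 had 367 ± 3.08 FPKM in the libraries labelled cKO and 425 ± 2.71 FPKM in control libraries. S100a1, S100a13 and S100a7a took the last 3 places in both groups, in that order, at 43.4, 21.7 and 14.5 FPKM in the libraries labelled cKO and 69.4, 23.8 and 10.3 FPKM in control libraries. The length behind the FPKM of S100a3 was 3206 bp, against 504 to 2125 bp for the other members, so its place depends on which of its annotated exons the tail skin uses.

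**Figure D3:**
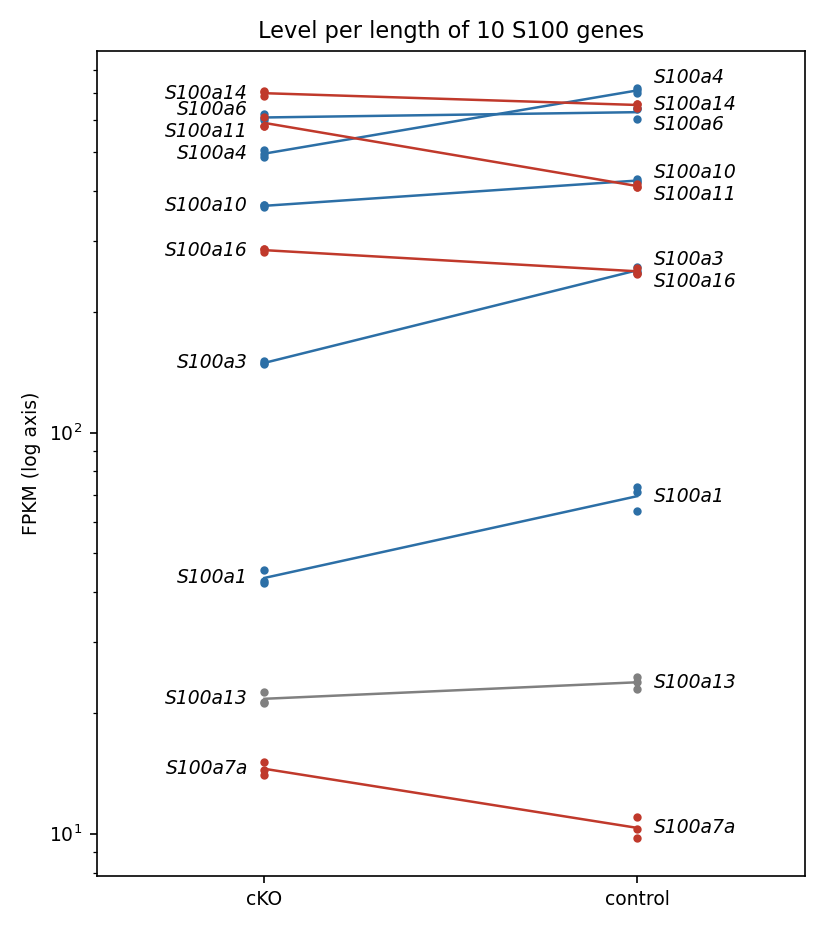
FPKM (log axis) of the 10 S100 genes in the libraries labelled cKO (left) and control libraries (right); points are libraries, lines join group means, and red, blue and grey mark genes that rose, fell or did not pass in the libraries labelled cKO. The line of S100a4 crosses those of S100a14, S100a6 and S100a11, and that of S100a3 drops away from S100a16.

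Together the 10 genes held 0.315% ± 0.001 of all counts in the libraries labelled cKO and 0.346% ± 0.00371 in control libraries. Their summed FPKM was 3279 ± 9.32 in the libraries labelled cKO and 3442 ± 45.1 in control libraries, a far smaller difference than that of calprotectin. S100a8 and S100a9 summed to 7648 ± 75.6 FPKM in the libraries labelled cKO and 211 ± 7.40 FPKM in control libraries. Of the FPKM of all S100 genes in the table, the 10 genes accordingly made up 30.0% ± 0.244 in the libraries labelled cKO and 94.1% ± 0.165 in control libraries. Of the remaining S100 genes, S100b, a gene of Schwann cells and other glia, was low and fell to 3.31 ± 0.729 CPM in the libraries labelled cKO, against 4.97 ± 0.416 CPM in control libraries (log2 fold change -0.59, SE 0.19, adjusted p = 0.00663). All 5 Schwann cell markers fell as well, with a sum of 124 to 138 CPM in the libraries labelled cKO and 327 to 342 CPM in control libraries, none at 0; their part in the fall of S100b was not tested. S100a2, S100a5, S100g and S100z had at most 21 counts in any library and were not tested. The reference spans of S100a2 and S100a3 overlap, and how reads from the shared stretch were assigned is not given in the sources used here, which bears on the counts of both genes.

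In the reference, 12 coding S100 genes follow each other from S100a1 to S100a9, in the order S100a1, S100a13, S100a14, S100a16, S100a3, S100a2, S100a4, S100a5, S100a6, S100a7a, S100a8 and S100a9. S100a11 and S100a10 stand apart from them, past the loricrin, SPRR, LCE and filaggrin genes, and follow Tchhl1. Of the 10 tested genes in the first stretch 5 were higher and 4 lower. In order, S100a1 was lower, S100a13 did not pass, S100a14 and S100a16 were higher, and S100a3, S100a4 and S100a6 lower. S100a7a, S100a8 and S100a9 followed, all higher, while S100a2 and S100a5 were not tested. Between S100a9 and S100a11, 27 of 50 tested genes were higher and 21 lower. Of all genes tested, 30.8% were called higher and 30.6% lower. Whether position bears on direction was not tested. The changes of the 10 genes described here, between -0.79 and 0.50 on the log2 scale, were small beside those of S100a8 (5.06) and S100a9 (5.25). Rises of that size were not particular to S100a8 and S100a9, since Lce3a (5.28) and Lce3b (5.19) reached it too. Lce3a and Lce3b were named after their values were seen.

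**Figure D4:**
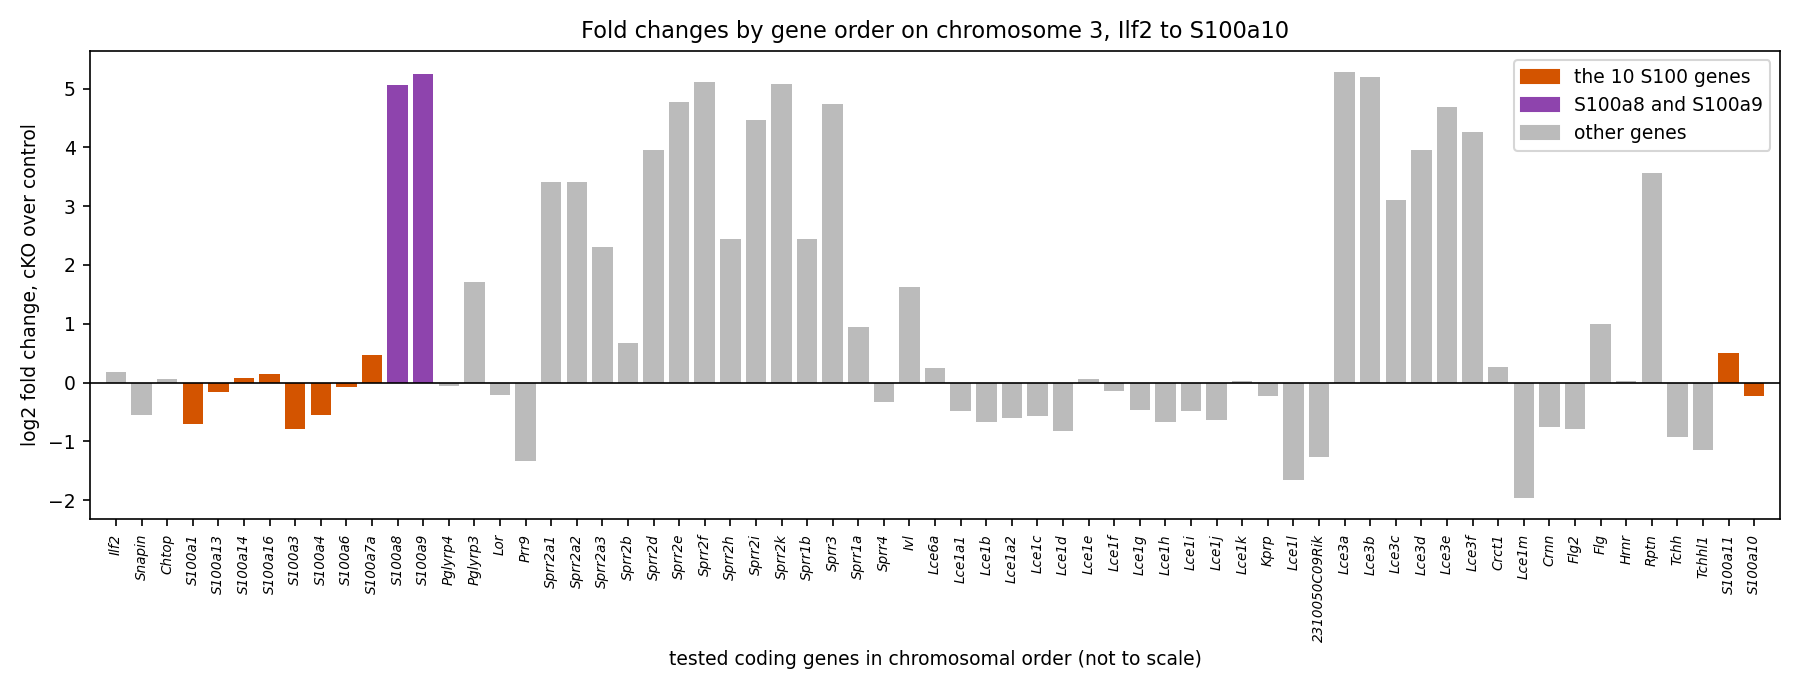
Log2 fold change, libraries labelled cKO over control libraries, of tested coding genes in the reference order of chromosome 3 (evenly spaced, not to scale), with the 10 S100 genes in orange, S100a8 and S100a9 in purple and others in grey. The orange bars stay between -0.79 and 0.50 on both sides of the complex. S100a8 and S100a9 exceed 5, as do the grey bars of Lce3a, Lce3b, Sprr2f and Sprr2k, which were named after their values were seen.

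Fused-type proteins carry an S100 domain ahead of long repeats and are made late in epidermal or hair differentiation. All 7 passed the test, 3 higher and 4 lower, where 61.4% of all genes tested passed, 30.8% higher and 30.6% lower (median log2 fold change -0.75, against 0.0021 over all genes tested). Rptn and Flg rose, with log2 fold changes of 3.57 and 0.99, and Hrnr rose by 0.02 (adjusted p = 0.0303). Tchhl1, Tchh, Flg2 and Crnn fell by 1.152, 0.92, 0.79 and 0.75 on the log2 scale.

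A list of 40 genes for known partners, receptors and clients of S100 proteins had 39 in the table and 36 tested. Of these 15 rose, 13 fell and 8 did not pass, where 61.4% of all genes tested passed, 30.8% higher and 30.6% lower (median log2 fold change 0.014, against 0.0021 over all genes tested). The largest rises were those of Plaur and Plat, whose products act in plasminogen activation. Of the same pathway, Plau did not pass (41.7 ± 1.34 CPM in the libraries labelled cKO, 39.7 ± 1.55 CPM in control libraries, adjusted p = 0.296) and Plg had too few counts to test; both were named after their values were seen. Plaur, the urokinase receptor gene, rose 2.19-fold, to 12.4 ± 1.87 CPM in the libraries labelled cKO, against 5.68 ± 0.564 CPM in control libraries (adjusted p = 1.55e-11). Plat, which encodes tissue plasminogen activator, rose 2.01-fold, to 26.2 ± 0.425 CPM in the libraries labelled cKO, against 13.02 ± 0.638 CPM in control libraries (adjusted p = 5.09e-17). Tubb5, a tubulin gene, rose 1.49-fold (adjusted p = 1.10e-33). The largest falls were those of Ahnak2 (2.40-fold, to 84.0 ± 0.728 CPM in the libraries labelled cKO, against 201 ± 3.54 CPM in control libraries) and of the ryanodine receptor genes Ryr1 and Ryr2 (2.12-fold and 2.02-fold). Ryr2 was at 0.808 ± 0.208 CPM in the libraries labelled cKO and 1.64 ± 0.222 CPM in control libraries, so its fold is loosely fixed. Of the other annexins, Anxa5 rose 1.09-fold (adjusted p = 0.000411) and Anxa6 did not pass (43.9 ± 1.43 CPM in the libraries labelled cKO, 46.5 ± 1.04 CPM in control libraries, adjusted p = 0.203).

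For each S100 gene the tested gene with the most similar pattern was sought among 11210 genes, by the root mean square distance between log2 CPM values centred on their mean over the 6 libraries. With 2 groups of 3 this distance mostly reflects the size of the difference between groups. The nearest gene was Krt79 for S100a3 (distance 0.018), Gigyf1 for S100a1 (0.026), Fbxo8 for S100a4 (0.017), Rps15a for S100a10 (0.0087) and Smim7 for S100a6 (0.014). It was Wfdc5 for S100a11 (0.018), Nfya for S100a7a (0.026), Elof1 for S100a16 (0.0076), Cnbp for S100a14 (0.0088) and Ubr7 for S100a13 (0.018).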

How the data were processed

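Libraries were made from tail skin RNA extracted with TRIzol, per the labels' protocols. The deposited values are raw counts and the authors' FPKM for 18180 genes. The tools were fastp, HISAT2 and HTSeq and the build mm39, per the submitters' processing notes. No source used here gives the annotation, the strand setting or the treatment of multiple alignments. A length per gene was solved from the deposited counts and FPKM themselves. Dividing each count by that length and its library's total gave back the deposited FPKM of every gene (tolerance 1e-06). A gene counted in a single library meets this by construction.

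Groups followed the titles and genotypes in the labels. The main test of counts was edgeR 4.0.16 (R 4.3.3): filterByExpr (minimum count 10, minimum total 15) left 15061 genes, with TMM scaling, robust quasi-likelihood fits with group as the only term, two-sided tests and Benjamini-Hochberg adjustment over all genes tested at 0.05. A standard error is the log2 fold change over the square root of F. The steps were tested on simulated data. Alternatives used DESeq2 1.42.0, limma 3.58.1 (voom, and log2 FPKM with pseudocounts of 1 or 0.1, with and without a filter of 0.5 FPKM), other scalings and filters, thresholds, a replicate block, assumed BCVs and leaving out each library. Between libraries of 1 group the chi-square per gene was 3.94 to 4.14, where sampling noise alone gives about 1, so no library was a copy of another; this does not show that they came from separate animals.

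The members and lists were chosen with earlier results of these data known. Named were all members, up to 4 called genes per direction and list, fixed partners and nearest patterns. The targeted gene, cell type markers, neighbours in reference order and untested S100 genes were named as well. Genes picked after their values were seen are marked. Lists were not tested as sets. The reference annotation was of another build, GRCm38, and gave gene order, names and promoter windows only.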

Additional observations from a re-analysis of the deposited data

How the results depend on the processing

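Under 24 alternatives no S100 gene changed direction. Under 20 of them the counts of S100 genes called higher and lower stayed within 1.5 times of 4 and 5, as did the count of all genes called. Leaving out each library in turn gave 4 higher and 4 to 5 lower S100 genes, and 8694 to 8847 genes in all. When tested against 1.2-fold, 2 S100 genes were higher (S100a7a and S100a11) and 3 lower (S100a1, S100a3 and S100a4), with 5176 genes in all. Against 1.5-fold, 0 were higher and 1 lower, with 2044 genes in all and 5 of the partner list. An assumed BCV of 20% left 0 higher and 2 lower, 3361 genes in all and 8 of the partner list. An assumed BCV of 40% left 0 higher and 0 lower, 774 genes in all, 0 of the partner list and 1 fused-type gene. These thresholds and spreads ask for more by construction.

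S100a6 lost its call under 10 alternatives, with log2 fold changes from -0.10 to -0.04 over all 24, among them upper quartile scaling (adjusted p = 0.101) and the FPKM fits (adjusted p = 0.156 to 0.258). The cause was not tested. S100a13 was called lower in the 3 FPKM fits. Upper quartile scaling moved the median log2 fold change of all genes from 0.0021 to 0.031. It moved the log2 fold change of S100a6 from -0.067 to -0.038.

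Same-numbered libraries did not deviate together (correlations -0.00728, -0.00284 and -0.00233), so no pairing by number was seen. A link limited to some genes could be missed by this check. The replicate block gave 9212 genes, 4 higher and 5 lower S100 genes. Each gene's depth was at least 701 counts a library, and with 3 libraries a group no single value can reach an exact p under 0.1.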
